A study of Mus musculus with 55 samples.

Results

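The genes described here are 10 genes of protein folding in the endoplasmic reticulum (ER), namely Hspa5, Hsp90b1, Calr, Pdia4, Hyou1, Sdf2l1, Dnajb9, Manf, Creld2 and Xbp1. They were taken by symbol from the table of gene counts, in which each symbol had 1 row, and are 10 of its 55487 genes. All 10 passed the filter on low counts and are among the 16168 genes tested. The counts came from RNA of the dorsal hippocampus of 55 mice on a C57/BL6j background, with 1 library per mouse. There were 27 wild-type (WT) mice (4 metestrus, 6 diestrus, 5 proestrus and 7 estrus females and 5 males) and 28 Cnih3 knock-out (KO) mice (5 metestrus, 6 diestrus, 4 proestrus and 6 estrus females and 7 males). Stage was read from vaginal cytology at collection. Ages spanned 10.86 to 23.71 weeks (median 16.86), and group medians ran from 12.43 weeks in KO diestrus to 20.29 weeks in WT males. KO mice of this line lack exon 4 of Cnih3 and came from parents of the Cnih3 line. WT mice came from Cnih3 heterozygous or from B6 parents.

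Proteins that enter the ER fold there with the help of chaperones, and cells match the amount of these chaperones to the load of new protein through the unfolded protein response. In that response the sensors Ern1 (IRE1), Atf6 and Eif2ak3 (PERK) detect unfolded protein, and the factors they activate raise transcription of chaperone genes. Neurons use this machinery to fold receptors, channels and secreted peptides, and the KO line lacks an auxiliary protein of AMPA-type glutamate receptors, which are folded in the ER. The comparisons ask how the estrous stages differ from each other and from males, and whether the loss of Cnih3 changes either. The label of ER chaperones fits 7 of the 10 genes closely. Of the other 3, Xbp1 encodes a transcription factor of the response, Manf an ER protein that is also secreted and protects neurons, and Creld2 an ER protein that can be secreted as well.

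The libraries held between 25881295 and 63547098 counts (median 53384170). Levels are CPM, counts scaled to the library size and by TMM, a correction for composition. They are relative levels, and in bulk tissue fewer cells of a type and less RNA per cell cannot be told apart. Summed levels of the neuronal markers were 261.2 to 452.3 CPM for 6 genes of dentate granule cells, 341.7 to 506.9 CPM for 6 genes of CA1 and 288.6 to 547.7 CPM for 5 genes of CA3 pyramidal cells, so the libraries hold hippocampal neurons. Counts of Cnih3 cover the whole gene while 1 exon is deleted, and they were 21.6 to 62.5 CPM in WT and 21.6 to 47.8 CPM in KO mice, which is no check of the single libraries. A gene was called where its FDR by limma was under 0.05, adjusted over the 16168 genes. Log2 fold changes are the first-named group minus the second, many with their standard error (SE). They are estimates of a fit that weights each library by its quality, so they differ from differences of the plain group means.

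Per kilobase of exon, the median levels over the 55 libraries put Calr first at 52.1 CPM per kb, followed by Hspa5 at 32.2, Hsp90b1 at 29.5, Dnajb9 at 14.2, Sdf2l1 at 12.9, Pdia4 at 12.2, Manf at 10.3, Xbp1 at 7.87, Creld2 at 6.63 and Hyou1 at 2.37. The abundant lectin and general chaperones thus stood above the co-chaperones and factors. Exon length here is the union of all annotated exons of a gene, so the order depends on the annotation. In GRCm38, 415 exon bases of Hsp90b1 (10.3%) also lie in a pseudogene on the opposite strand, and at most 4.71% of the exon bases of any other of the 10 genes lie in another gene. The cDNA kit does not mark strand, so reads in those bases cannot be told apart.

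Across the female stages the lowest mean of log2 CPM was that of diestrus for 8 of the 10 genes in WT mice and for 10 of 10 in KO mice. In WT the exceptions were Sdf2l1, lowest in estrus, and Xbp1, lowest in metestrus. The highest stage varied. In WT it was proestrus for 4 genes, estrus for 3 and metestrus for 3, and in KO it was proestrus for 5, metestrus for 4 and estrus for 1. The plot of CPM by mouse shows that the low diestrus means came from part of the diestrus mice.

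**Figure D1:**
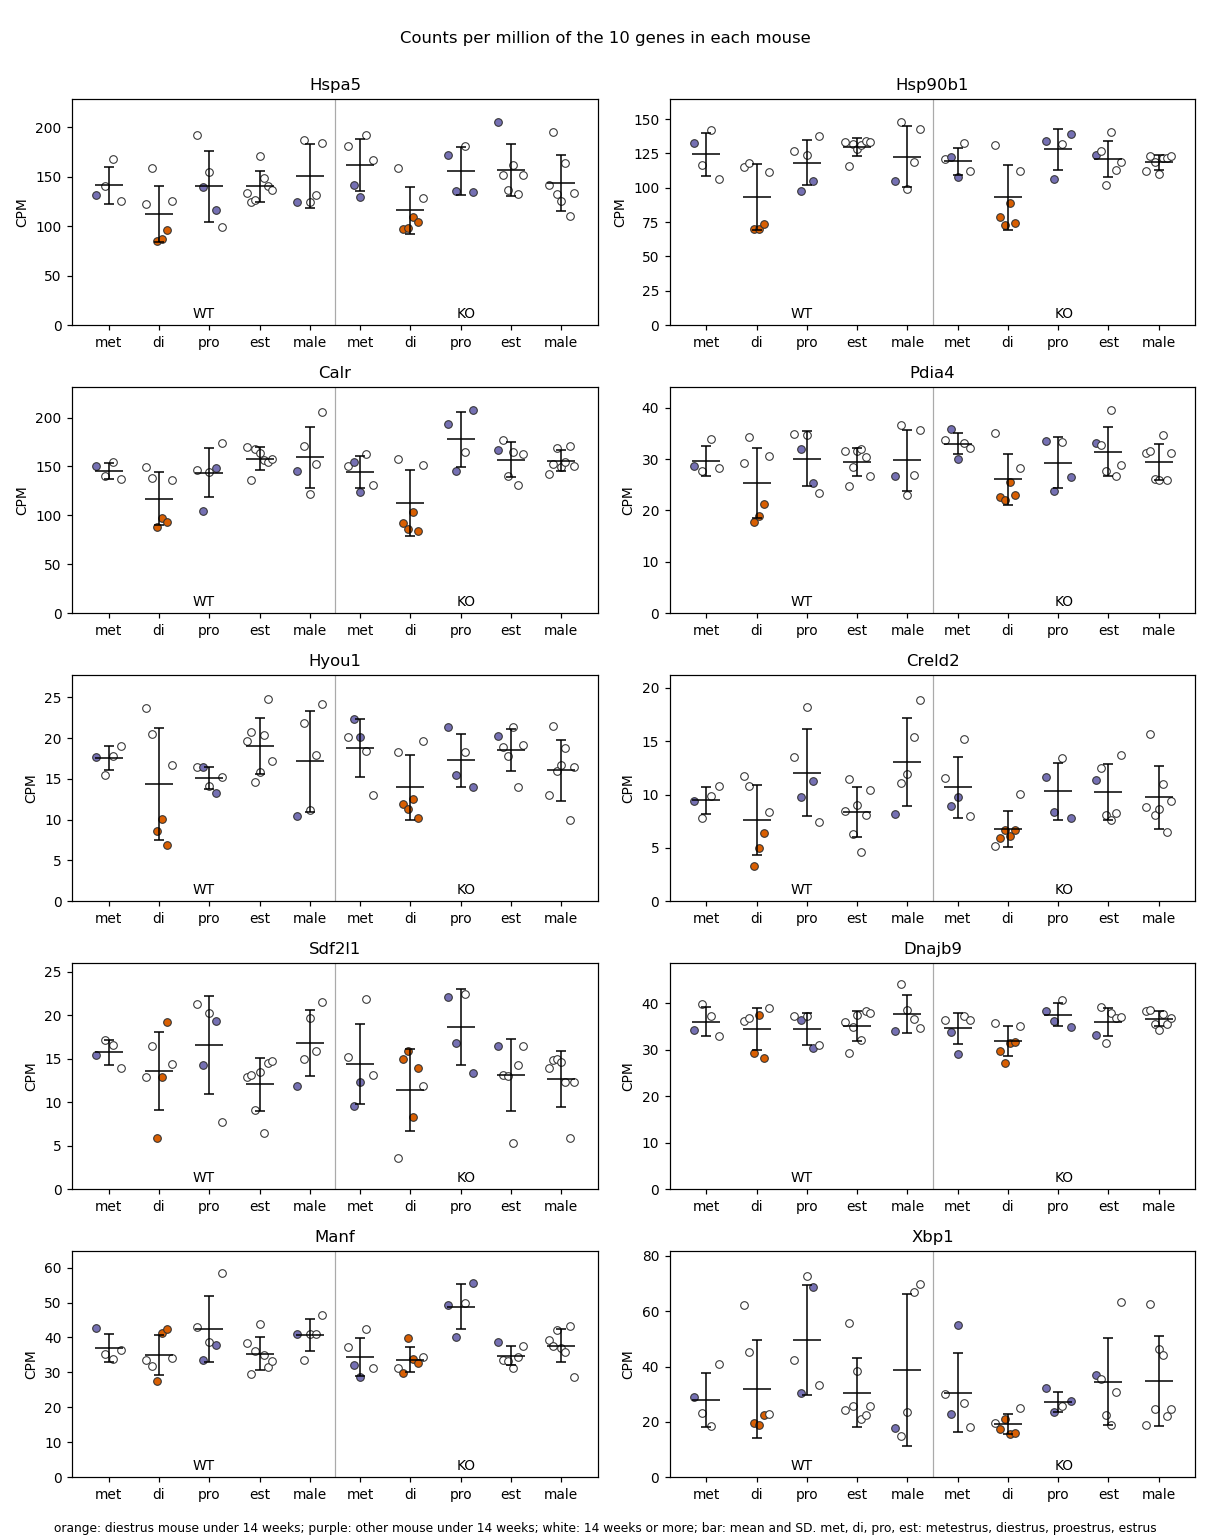
CPM of the 10 genes (vertical axes, from 0) in each mouse of the 10 groups (horizontal axes), with the mean and SD as bars; orange points are diestrus mice under 14 weeks, purple points other mice under 14 weeks and white points mice of 14 weeks or more. For Hsp90b1 the 7 orange points lie at 70.0 to 88.9 CPM and all other points at 97.8 CPM or more, whereas for Manf and Sdf2l1 the orange points overlap the rest.

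Hspa5 (BiP, chr2:34771970-34777547, plus strand) is the Hsp70 of the ER, which binds unfolded proteins and holds the sensors inactive. Its level was 84.9, 109 and 159 CPM (lowest, median, highest) in the 6 WT diestrus mice. It was 131, 141, 168 and 125 CPM in the WT metestrus mice, 192, 139, 155, 116 and 99.2 CPM in the WT proestrus mice, and 125, 137 and 172 CPM (lowest, median, highest) in the 7 WT estrus mice. The groups overlapped, with 3 WT diestrus mice below every other WT mouse and the highest WT diestrus mouse above most of them. The log2 fold change of Hspa5 in WT diestrus was -0.56 (SE 0.15, FDR 0.0145) against proestrus and -0.42 (SE 0.13, FDR 0.0201) against estrus. In KO diestrus mice its level was 97.5, 107 and 159 CPM (lowest, median, highest), compared with 181, 141, 129, 192 and 167 CPM in KO metestrus and 172, 136, 181 and 134 CPM in KO proestrus mice. KO metestrus mice were higher than KO diestrus mice by 0.63 (SE 0.13, FDR 0.00108), the largest Hspa5 difference between KO stages. KO diestrus was lower than proestrus (-0.53, FDR 0.00155) and estrus (-0.48, FDR 0.00413).

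Hsp90b1 (Grp94, chr10:86690209-86705509, minus strand) is the Hsp90 of the ER and folds a limited set of clients such as integrins and Toll-like receptors. In WT diestrus mice it was at 70.0, 92.8 and 118 CPM (lowest, median, highest). The WT metestrus mice were at 132, 117, 142 and 107 CPM, the WT proestrus mice at 127, 97.8, 124, 105 and 137 CPM and the WT estrus mice at 115, 132 and 134 CPM (lowest, median, highest). Diestrus mice fell into a low and a high set, and the high set overlapped the other stages. Hsp90b1 was called in all 3 WT comparisons with diestrus, as the log2 fold change was 0.51 (SE 0.12, FDR 0.0104) for metestrus against diestrus, -0.47 (SE 0.12, FDR 0.0149) for diestrus against proestrus and -0.61 (SE 0.11, FDR 0.000476) for diestrus against estrus. In KO diestrus mice it was at 72.8, 83.8 and 131 CPM (lowest, median, highest). The KO metestrus mice were at 121, 123, 108, 133 and 112 CPM, the KO proestrus mice at 134, 106, 132 and 139 CPM and the KO estrus mice at 102, 122 and 140 CPM (lowest, median, highest). The 3 KO comparisons with diestrus were called too, at 0.53 (FDR 0.00111), -0.57 (FDR 0.000118) and -0.49 (FDR 0.000573).

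Calr (calreticulin, chr8:84841850-84846934, minus strand) is the soluble lectin chaperone that holds newly made glycoproteins and stores calcium in the ER. In WT diestrus mice it was at 88.1, 116 and 149 CPM (lowest, median, highest), compared with 150, 140, 155 and 137 CPM in WT metestrus, 146, 104, 144, 148 and 174 CPM in WT proestrus and 136, 158 and 170 CPM (lowest, median, highest) in WT estrus. It was called against WT metestrus and estrus (0.41, SE 0.13, FDR 0.0378 and -0.55, SE 0.12, FDR 0.00121) and missed the threshold against WT proestrus (-0.38, SE 0.13, FDR 0.0544). In KO diestrus mice it was at 84.1, 97.8 and 158 CPM (lowest, median, highest). The KO metestrus mice were at 150, 155, 124, 162 and 131 CPM, the KO proestrus mice at 193, 146, 165 and 207 CPM and the KO estrus mice at 131, 164 and 177 CPM (lowest, median, highest). Calr in KO diestrus against proestrus had the smallest FDR of the 10 genes in any comparison, at -0.80 (SE 0.12, FDR 2.11e-06). Its KO difference from estrus was -0.66 (FDR 3.39e-05) and that of metestrus from diestrus 0.58 (FDR 0.000787).

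Hyou1 (Grp170, chr9:44379490-44392369, plus strand), a nucleotide exchange factor for Hspa5, and Pdia4 (ERp72, chr6:47796141-47813430, minus strand), an oxidoreductase that forms and shuffles disulfide bonds, were also lowest in diestrus in both genotypes, at lower levels. Hyou1 was at 6.83, 13.4 and 23.6 CPM (lowest, median, highest) in WT diestrus and at 14.6, 19.7 and 24.8 CPM in WT estrus mice, a log2 fold change of -0.71 (SE 0.19, FDR 0.006). Among WT stages that was its only call, and in KO it was called against metestrus (0.61 for metestrus against diestrus, FDR 0.0151), proestrus (-0.53, FDR 0.0184) and estrus (-0.57, FDR 0.00927). Pdia4 was at 17.8, 25.3 and 34.2 CPM in WT diestrus, at 34.9, 32.1, 34.7, 25.4 and 23.4 CPM in WT proestrus and at 24.8, 30.3 and 32.0 CPM in WT estrus mice. Its differences were -0.47 (SE 0.14, FDR 0.0273) against WT proestrus and -0.34 (SE 0.13, FDR 0.0438) against WT estrus. In KO, Pdia4 was called against metestrus (0.44 for metestrus against diestrus, FDR 0.00909) and estrus (-0.32, FDR 0.0305) but not proestrus.

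Creld2 (chr15:88819646-88826683, plus strand) and the transcription factor Xbp1 (chr11:5520659-5525893, plus strand), whose mRNA is spliced by Ern1, differed in WT between proestrus and other stages. Creld2 was at 13.5, 9.77, 18.2, 11.3 and 7.44 CPM in WT proestrus, at 3.31, 7.40 and 11.7 CPM (lowest, median, highest) in WT diestrus and at 4.62, 8.49 and 11.5 CPM in WT estrus mice. Xbp1 was at 42.5, 30.5, 72.6, 68.7 and 33.2 CPM in WT proestrus, at 19.0, 22.7 and 62.1 CPM in WT diestrus and at 21.1, 25.6 and 55.7 CPM in WT estrus mice. In each case the proestrus values were mostly the higher ones but overlapped both other stages. The fitted WT diestrus minus proestrus differences, -1.16 (SE 0.25, FDR 0.00483) for Creld2 and -1.14 (SE 0.35, FDR 0.0319) for Xbp1, were the largest of the 10 genes among WT stages. The unweighted means of log2 CPM in these 2 groups lay closer, at 2.80 and 3.53 for Creld2 and 4.83 and 5.54 for Xbp1. Both were also called in WT proestrus against estrus, at 0.69 (SE 0.20, FDR 0.023) and 0.91 (SE 0.29, FDR 0.0418). In KO, Creld2 was called in all 3 comparisons with diestrus, with 0.79 (FDR 0.0096) for metestrus against diestrus as the largest, and Xbp1 in diestrus against estrus (-0.82, SE 0.31, FDR 0.0421). Counts of Xbp1 do not separate the spliced from the unspliced form. With group means removed, Pearson's r of Xbp1 with the RNA integrity number was -0.46 over the 55 libraries. With that number as a covariate, the Xbp1 difference between WT diestrus and proestrus changed sign (value given in the last section).

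Manf, Dnajb9 and Sdf2l1 showed smaller or less regular differences, and none of them was called between WT stages. Manf (chr9:106838312-106891979, minus strand) was at 49.4, 40.2, 50.0 and 55.7 CPM in KO proestrus mice. It was at 29.9, 33.3 and 39.9 CPM (lowest, median, highest) in KO diestrus and at 37.2, 32.1, 28.6, 42.3 and 31.3 CPM in KO metestrus mice. Every KO proestrus mouse was above every KO diestrus mouse, the only call of the 10 genes in which the groups did not overlap (2.63% of all genes lay so in this comparison). The differences were -0.45 (SE 0.11, FDR 0.00111) for KO diestrus and -0.40 (SE 0.12, FDR 0.0397) for KO metestrus, each against KO proestrus. For KO proestrus against KO estrus the Manf difference of 0.42 (SE 0.12) had an FDR of 0.0587.

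Dnajb9 (ERdj4, chr12:44205559-44210326, minus strand) and Sdf2l1 (chr16:17130138-17132383, minus strand) are co-chaperones of Hspa5, the first a J-domain protein and the second part of a complex with other J-domain proteins. Dnajb9 had a range of 27.0 to 44.1 CPM over all mice, with 27.0, 31.5 and 35.6 CPM (lowest, median, highest) in KO diestrus, 38.2, 36.2, 40.6 and 34.9 CPM in KO proestrus and 31.5, 36.9 and 39.3 CPM in KO estrus mice. Its differences were small, -0.29 (SE 0.08, FDR 0.00477) and -0.21 (SE 0.08, FDR 0.0353). Sdf2l1 varied about as much within groups as between them, with 3.56, 12.9 and 15.9 CPM (lowest, median, highest) in KO diestrus and 22.1, 16.8, 22.5 and 13.3 CPM in KO proestrus mice, its only call (-0.69, SE 0.23, FDR 0.0165).

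Counted together, 7 of the 10 genes were called in at least 1 of the 6 pairs of WT stages, while 30.6% of all genes tested were, and 10 of 10 were called in at least 1 pair of KO stages, while 46.2% of all genes were. In WT metestrus against diestrus 2 genes were higher (5.59% of all genes were), in WT diestrus against proestrus 5 were lower (7%), in WT diestrus against estrus 5 were lower (13.1%) and in WT proestrus against estrus 2 were higher (5.25%). In KO metestrus against diestrus 6 were higher (8.2% of all genes), in KO diestrus against proestrus 8 were lower (19.4%), in KO diestrus against estrus 8 were lower (19.3%) and in KO metestrus against proestrus 1 was lower (1.5%). No call went the other way. The median log2 fold changes of the 10 genes in diestrus were -0.47 against WT proestrus, -0.38 against WT estrus, -0.55 against KO proestrus and -0.48 against KO estrus, whereas the medians of all genes tested were -0.03, -0.01, -0.03 and -0.01. Single mice moved several of these counts. In WT metestrus against diestrus 6 genes were called without WT diestrus replicate 1, 2 or 6 and 1 without WT metestrus replicate 1 or 3. Of all genes, 30.3 to 30.7% were called in either direction in the refits with 6, and 3.95 and 7.51% in those with 1. In WT diestrus against proestrus 8 were called without WT diestrus replicate 2 or 6 (31.1 and 32.3% of all genes). There 3 were called without WT proestrus replicate 1 or 3 (10 and 2.45% of all genes). In both of these and in WT diestrus against estrus 0 were called without WT diestrus replicate 3, 4 or 5, and at most 0.0247% of all genes were. In WT proestrus against estrus 0 were called without WT proestrus replicate 3 or WT estrus replicate 3 and 1 without WT proestrus replicate 4 or 5 or WT estrus replicate 1, 5, 6 or 7. Of all genes, 3.47 and 4.98% were called in the refits with 0, and 4.85 to 10.4% in those with 1. In KO diestrus against estrus 4 were called without KO diestrus replicate 2 or KO estrus replicate 2 or 6 (16.5 to 18.7% of all genes). There 5 were called without KO diestrus replicate 3 or 5 (23.8 and 20.8% of all genes). In KO diestrus against proestrus 5 were called without KO proestrus replicate 1 (19.9% of all genes). The call of Manf in KO metestrus against proestrus was lost without KO metestrus replicate 1, 2, 3 or 5 or KO proestrus replicate 1, 3 or 4. Of all genes, 0.00619 to 5.03% were called in those refits.

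The pairs without diestrus held few calls. None of the 10 genes was called in WT metestrus against proestrus (0.767% of all genes), WT metestrus against estrus (0%), KO metestrus against estrus (0%) or KO proestrus against estrus (0.507%). In these pairs 2, 0, 0 and 2 of the 10 genes had an unadjusted limma p under 0.05, as 13.4% of all genes did in the first and 19% in the last. With a single mouse left out, 1 of the 10 was called in WT metestrus against proestrus without WT metestrus replicate 4 or WT proestrus replicate 2 (2.85 and 1.13% of all genes). The same number was called in KO proestrus against estrus without KO proestrus replicate 2, KO estrus replicate 5 or KO metestrus replicate 4 (0.742, 1.89 and 0.513% of all genes). The call of Manf in KO metestrus against proestrus and those of Creld2 and Xbp1 in WT proestrus against estrus were the only ones in pairs without diestrus.

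**Figure D2:**
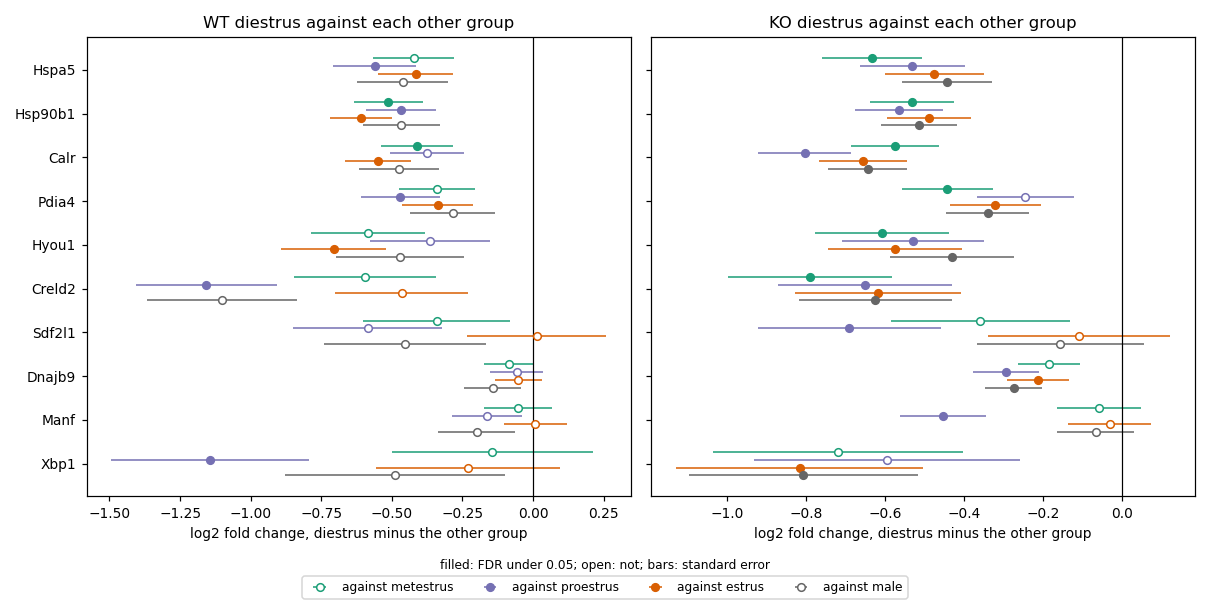
Log2 fold change of diestrus minus metestrus, proestrus, estrus or males (colours) for each of the 10 genes, in WT (left) and KO (right) mice, with bars for the standard error and filled points for an FDR under 0.05. In KO all 40 points lie below 0 and 30 are filled, while in WT only Sdf2l1 and Manf against estrus lie above 0, both at 0.01, and 12 points are filled.

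The calls depended on the test. Over the comparisons named here there were 45 calls of a gene in a comparison by limma with quality weights per library, of which 4 were called by the quasi-likelihood test of edgeR, 6 by DESeq2 and 8 by voom without quality weights, all in the same direction. By edgeR these were Hsp90b1, Manf and Calr in KO diestrus against proestrus (FDR 0.0335, 0.0134 and 0.0107) and Calr in KO diestrus against males (FDR 0.0259). No WT call held by edgeR, and Hsp90b1 in diestrus against estrus held by DESeq2 (FDR 0.0329). Fewer of all genes were called by these tests as well. In KO diestrus against proestrus the share was 8.37% by edgeR and 13.5% by DESeq2 (of the genes it tested), compared with 34.3% by limma. In KO diestrus against males it was 5.03%, 8.84% and 28.7%. Between WT stages edgeR called at most 0.0928% and DESeq2 at most 0.849%, compared with up to 22.1% by limma.

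The calls between females and males were those of KO diestrus mice. In KO males the levels of Calr were 142, 153 and 171 CPM (lowest, median, highest), those of Hsp90b1 110, 122 and 123 CPM and those of Hspa5 110, 134 and 196 CPM. The KO diestrus mice reached from well below the male ranges into them. For KO diestrus against males 8 of the 10 genes were lower (18% of all genes were), all but Sdf2l1 and Manf, with Calr at -0.64 (SE 0.10, FDR 4.81e-06), Hsp90b1 at -0.52 (SE 0.10, FDR 7.3e-05), Dnajb9 at -0.27 (SE 0.07, FDR 0.00327) and Xbp1 at -0.81 (SE 0.29, FDR 0.0306). Without KO diestrus replicate 2 or 5 the number was 5, and 21.1 and 21.8% of all genes were called in either direction (28.7% with all mice). These 8 were also the genes called in any of the 5 comparisons of KO females with males, for which the share of all genes was 33.7%. No gene of the 10 was called by limma for KO metestrus (0.359% of all genes), proestrus (0.315%), estrus (7.66%) or the mean of the 4 stages (5.93%) against males, and 0, 2, 0 and 0 of them had an unadjusted p under 0.05 (18.2% of all genes in proestrus). Without KO male replicate 1 or 3, 1 of the 10 was called in KO proestrus against males (0.761 and 1.45% of all genes).

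In WT mice none of the 10 genes was called in any of the 5 comparisons of females with males by limma, edgeR or DESeq2, while 0.0866% of all genes were by limma, and 5 of the 10 had an unadjusted p under 0.05 (27.6% of all genes). WT diestrus against males (0.068% of all genes) came nearest. All 10 genes were lower there, with a median log2 fold change of -0.46 compared with -0.02 for all genes, and Creld2 had the smallest FDR (-1.10, SE 0.27, FDR 0.0766). Creld2 was at 8.15, 11.1, 12.0, 15.4 and 18.8 CPM in the WT males, which overlapped the WT diestrus values given above. The number called rose to 6 without WT male replicate 1, 2 or 3 or without WT diestrus replicate 2 or 6, to 5 without WT diestrus replicate 1 and to 1 without KO diestrus replicate 6. The share of all genes called rose as well, to 12.9 to 20.8% in the refits with 6, 13.6% in that with 5 and 0.346% in that with 1. Without WT male replicate 2, 1 of the 10 genes was called in WT estrus and in all WT females against males (1.23 and 1.02% of all genes).

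None of the 10 genes was called between the genotypes by limma, edgeR or DESeq2, in any of the 5 conditions or in their mean, compared with 3.64% of all genes called by limma in at least 1 of these 6 comparisons. Of the 10, 2 had an unadjusted p under 0.05, both in proestrus, while 40.2% of all genes did in at least 1 of the 6 comparisons. Xbp1 was at 32.2, 23.7, 25.8 and 27.4 CPM in KO proestrus mice, and only the highest of these lay above the lowest WT proestrus mouse. The log2 fold change was -0.99 (SE 0.33, p 0.00466, FDR 0.179). Calr was higher in KO proestrus by 0.27 (SE 0.13, p 0.0357, FDR 0.328). Over all mice, the 95% intervals of KO minus WT were -0.04 to 0.20 for Hspa5, -0.13 to 0.07 for Hsp90b1, -0.09 to 0.12 for Calr, -0.13 to 0.07 for Manf and -0.55 to 0.04 for Xbp1, so a shift of the abundant chaperones by more than 0.20 on this scale lies outside them. In diestrus no gene was called between the genotypes (0% of all genes), but 3 of the 10 were without WT diestrus replicate 3 and 2 were without WT diestrus replicate 4 or 5. In those refits 6.74, 5.76 and 4.74% of all genes were called.

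Whether the stage differences themselves differed between the genotypes was tested by the interaction of genotype with the 4 stages. None of the 10 genes was called by limma, edgeR or DESeq2, and 0% of all genes were by limma. Xbp1 had the smallest p (0.0419, FDR 0.39) and was the only one of the 10 with an unadjusted p under 0.05 (12.2% of all genes). Without WT diestrus replicate 3, 1 of the 10 genes was called (1.63% of all genes). More calls in KO than in WT are therefore not shown to be a difference between the genotypes.

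Of the 12 diestrus mice, 7 were under 14 weeks old (10.86 to 13.86 weeks), namely WT replicates 3, 4 and 5 and KO replicates 2, 3, 4 and 5, and these 7 held the low values. The fits gave them library weights of 0.763 to 1.14 in WT and 1.61 to 1.74 in KO. The older diestrus mice had weights of 0.327, 0.494 and 0.935 in WT and 0.433 and 0.509 in KO. Hsp90b1 was at 70.0, 73.9 and 88.9 CPM (lowest, median, highest) in the 7 mice and at 97.8, 122 and 148 CPM in the 48 other mice. Calr was at 84.1, 92.2 and 103 CPM compared with 104, 153 and 207 CPM. Neither gene overlapped between the 7 mice and the rest, and 1.42% of all genes tested had all 7 below the other 48. For Hspa5 1 of the 48 others lay below the highest of the 7, and the number was 3 for Hyou1, 4 for Creld2, 5 for Pdia4 and 11 for Xbp1. For Dnajb9, Manf and Sdf2l1 it was 35, 39 and 40. The number for Dnajb9 rests on 1 WT mouse at 37.5 CPM. The other young WT diestrus mice were at 28.3 and 29.3 CPM and the KO ones at 27.0 to 31.7 CPM. In the 48 others the lowest Dnajb9 level was 29.1 and the median 36.4 CPM. Manf was at 27.5 to 42.3 CPM in the 7 and 28.6 to 58.4 CPM in the others, and Sdf2l1 at 5.87 to 19.2 and 3.56 to 22.5 CPM. The medians of the 7 mice were 0.57 to 0.71 of the medians of the others for Hyou1, Calr, Hsp90b1, Creld2, Hspa5, Xbp1 and Pdia4, and 0.82, 0.92 and 0.97 of them for Dnajb9, Manf and Sdf2l1.

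The 5 diestrus mice of 14 weeks or more lay above these levels for Calr, Hsp90b1, Hspa5, Hyou1 and Pdia4, but not for every gene. Their Calr levels were 136 to 149 CPM in 3 WT mice and 151 and 158 CPM in 2 KO mice, and their Hsp90b1 levels 112 to 118 CPM and 112 and 131 CPM. The 2 older KO diestrus mice were at 5.16 and 10.0 CPM of Creld2, compared with 5.96 to 6.68 CPM in the 4 young ones, and at 19.4 and 25.1 CPM of Xbp1, compared with 15.7 to 20.9 CPM, so for these genes the older and young mice overlapped. The 10 mice under 14 weeks in other groups were at 104, 149 and 207 CPM of Calr and 97.8, 115 and 139 CPM of Hsp90b1 (lowest, median, highest). The mean of the 10 genes, each standardized over the 55 libraries, was -2.20 to -1.13 in the 7 mice, -0.36 to 0.41 in the older diestrus mice and -0.44 to 1.01 in the 10 young mice of other groups. With the 7 mice left out none of the 10 genes was called by limma in any comparison with diestrus, where 3 WT and 2 KO diestrus mice remained, and the medians of the 10 log2 fold changes moved to -0.10 and 0.06 against WT proestrus and estrus and to -0.14, -0.03 and -0.06 against KO proestrus, estrus and males. Some called differences shrank little or grew while their calls were lost with 2 KO diestrus mice left. In KO diestrus against proestrus Manf was at -0.51 (FDR 0.672), Sdf2l1 at -1.57 (FDR 0.465) and Creld2 at -0.51 (FDR 0.843), and in KO metestrus against diestrus Creld2 was at 0.64 (FDR 1). With only the 7 mice kept as diestrus, a subset set with their low values known, so that more calls follow from the choice, 8 genes were called against WT proestrus, 6 against WT estrus, 6 against WT males and 8 each against KO proestrus, estrus and males. The share of all genes called in that refit is not given here, so these counts are no result about the 10 genes. Of the calls between stages, Creld2 in WT proestrus against estrus (FDR 0.026) and Manf in KO metestrus against proestrus (FDR 0.046) remained without the 7 mice.

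Age in weeks, as a term beside the groups, was called for 0 of the 10 genes by limma (0.0804% of all genes), and 5 of the 10 had an unadjusted p under 0.05 (8.2% of all genes). The slope was above 0 for 9 of the 10, and that of Dnajb9 was 0.03 log2 units per week (SE 0.007, FDR 0.0562). Among the 43 mice outside diestrus Pearson's r with age was 0.57 for Dnajb9, 0.29 for Hspa5, 0.06 for Calr and -0.10 for Xbp1, as a description over mice that share groups.

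Other levels moved with the 7 mice. The sum of 6 RNAs that are retained in the nucleus (Malat1, Neat1, Meg3, Miat, Snhg11 and Kcnq1ot1) was 442.9 to 830.9 CPM in them and 800.1 to 4152 CPM, with a median of 3182 CPM, in the other 48, of which 1 lay below 830.9 CPM. That mouse, a WT male, had a mean of the 10 genes of 0.72 standard units. Summed markers of mature oligodendrocytes (10 genes) were 3139 to 4023 CPM in the 7 mice and 3421 to 7094 CPM in the others, those of microglia (6 genes) 116 to 157 and 137.7 to 233 CPM, and those of astrocytes (6 genes) 2838 to 3225 and 1662 to 3662 CPM. Those of choroid plexus (9 genes) were 135.7 to 1154 CPM in the 7 and 23.46 to 2248 CPM in the others, and those of dentate granule cells 261.2 to 332.2 and 274.5 to 452.3 CPM. RNA integrity numbers of the 7 were 8.3 to 8.9, compared with 7.6 to 8.9 in the rest, and their totals 52307959 to 58932939. Summed mitochondrial mRNA was 16180 to 25690 CPM in them, within the 9658 to 33300 CPM of the others. With the nuclear-retained RNA as a covariate, a fit chosen after the data were seen, the 10 genes had 1 call with diestrus, Manf in KO diestrus against proestrus (FDR 0.0491). The mature oligodendrocyte level as a covariate left 6 of the 45 calls. With group means removed, r with the mean of the 10 genes was 0.425 for these markers and 0.731 for those of microglia. The microglia level was not used as a covariate. The 7 mice are also the only ones whose label is a plain number of 3 digits, which 0 of the 48 others carry, neither the 5 older diestrus mice nor the 10 young mice of other groups. The labels do not say what the numbering marks. This numbering and diestrus at a young age fall on the same mice, so the 2 cannot be told apart. All 7 also had Cnih3 parents, as did every KO mouse. Of the older WT diestrus mice, replicates 1 and 2 had B6 parents and replicate 6 had Cnih3 parents. Breeding thus overlaps in part with the split among WT diestrus mice.

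**Figure D3:**
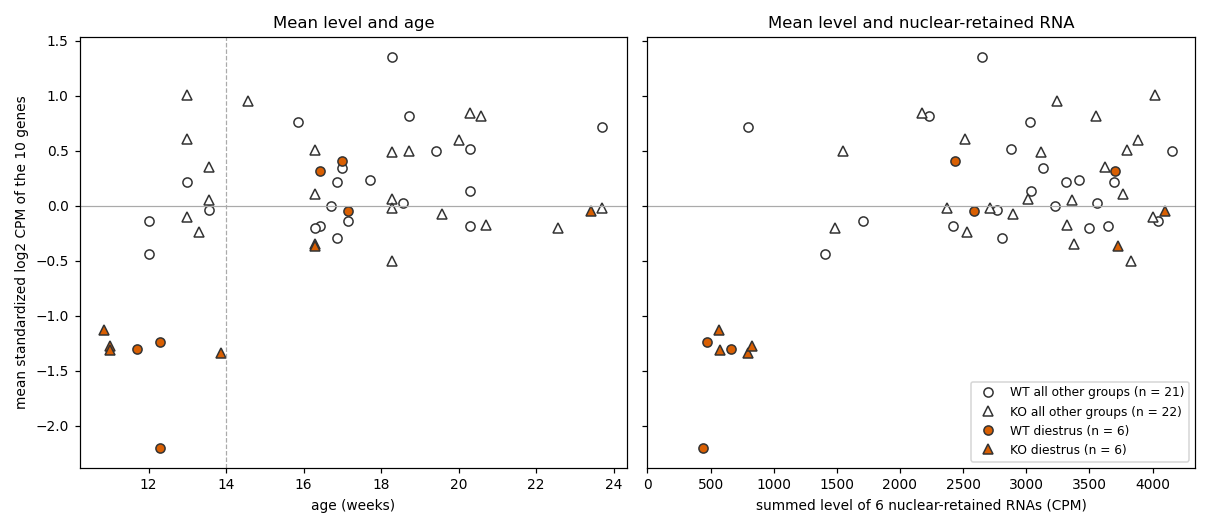
Mean standardized log2 CPM of the 10 genes in each mouse (vertical axes) against age in weeks (left, dashed line at 14 weeks) and against the summed CPM of 6 nuclear-retained RNAs (right), with diestrus mice filled, WT as circles and KO as triangles. The 7 diestrus mice under 14 weeks lie at -1.13 or below and at most 830.9 CPM, and every other mouse lies at -0.50 or above.

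The 10 genes varied together to different degrees. With group means removed, Pearson's r over the 55 libraries was above 0 in 37 of the 45 pairs, with a median of 0.33 (range -0.21 to 0.90), whereas the median over pairs of 1011 sampled genes was -0.003. The closest pairs were Hsp90b1 with Calr (0.90), Hspa5 with Pdia4 (0.85) and Hsp90b1 with Pdia4 (0.78). Each gene's r with the mean of the other 9 was 0.65 to 0.76 for Hspa5, Creld2, Hsp90b1, Pdia4, Hyou1 and Calr, then 0.45 for Dnajb9, 0.37 for Xbp1, 0.18 for Sdf2l1 and 0.01 for Manf. Without the 12 diestrus mice 36 of the 45 pairs stayed above 0 and the median was 0.27. These values describe libraries that share depth scaling and tissue makeup, and the 7 mice above contribute to those over all 55.

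Sequences of the promoters were compared because the genes that varied together are known targets of the unfolded protein response. The ER stress response element (ERSE), CCAAT followed by 9 free bases and CCACG, is bound by NF-Y and Atf6 and was searched on both strands, so that a match in the other orientation reads CGTGG and then ATTGG. RefSeq promoters of GRCm38.p6 (250 bases before the start and 50 after it) were given for 8 of the 10 genes, all but Manf and Hyou1. The element was in 4 of these 8, compared with 39 of 32851 promoters (0.119%) and with 4 of 18 genes that have a promoter entry in a list of 20 other ER folding enzymes and chaperones (Canx, Dnajc3, Ero1b and Pdia6). The 4 are Hspa5 (chr2:34771840-34772139, plus strand), Hsp90b1 (chr10:86705395-86705694, minus strand), Creld2 (chr15:88819396-88819695, plus strand) and Calr (chr8:84846882-84847181, minus strand), printed here from 5′ to 3′ with the fixed letters of each match in capitals.
Hspa5: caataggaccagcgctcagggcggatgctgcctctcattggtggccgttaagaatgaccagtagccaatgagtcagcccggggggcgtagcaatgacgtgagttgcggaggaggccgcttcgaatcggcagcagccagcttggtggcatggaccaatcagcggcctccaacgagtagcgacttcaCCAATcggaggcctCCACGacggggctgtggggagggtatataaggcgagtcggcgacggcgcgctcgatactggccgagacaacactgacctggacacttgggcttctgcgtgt
Hsp90b1: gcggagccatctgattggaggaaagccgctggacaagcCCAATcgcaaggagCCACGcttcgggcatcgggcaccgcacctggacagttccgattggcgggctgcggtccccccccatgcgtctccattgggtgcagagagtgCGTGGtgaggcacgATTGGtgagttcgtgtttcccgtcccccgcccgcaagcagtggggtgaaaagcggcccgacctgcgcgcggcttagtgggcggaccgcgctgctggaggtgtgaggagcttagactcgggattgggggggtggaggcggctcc
Creld2: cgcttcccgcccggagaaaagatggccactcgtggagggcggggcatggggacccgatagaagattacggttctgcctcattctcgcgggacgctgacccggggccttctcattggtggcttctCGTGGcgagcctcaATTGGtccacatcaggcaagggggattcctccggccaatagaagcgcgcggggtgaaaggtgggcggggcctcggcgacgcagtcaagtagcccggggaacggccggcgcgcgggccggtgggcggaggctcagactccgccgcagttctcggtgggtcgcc
Calr: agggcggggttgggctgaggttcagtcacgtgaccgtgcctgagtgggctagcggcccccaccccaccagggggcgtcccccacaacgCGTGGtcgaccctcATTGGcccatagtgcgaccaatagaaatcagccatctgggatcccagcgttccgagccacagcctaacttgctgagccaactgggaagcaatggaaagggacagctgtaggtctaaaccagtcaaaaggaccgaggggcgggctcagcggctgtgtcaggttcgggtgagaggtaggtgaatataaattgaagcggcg
Hsp90b1 holds 2 matches, 1 in each orientation, that begin 212 and 107 bases before the start. The match of Hspa5 begins 65 bases before the start, that of Creld2 126 and that of Calr 162. These 4 genes were among the 6 with the closest covariation, together with Pdia4, whose window holds no match, and Hyou1, whose promoter was not searched. Whether the element relates to the covariation was not tested. The core CCACG, which overlaps the element, was in 7 of the 8 promoters and in 32.8% of all, the ERSE-II element, ATTGG followed by 1 free base and CCACG, in 0 of 8 (0.0365% of all, 1 of the 18) and TGACGTG, the core of the site of Xbp1 and Atf6, in 1 of 8, that of Hspa5 (157 bases before the start, 2.01% of all). A match describes letters in this window, and binding was not measured.

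Genes of neighbouring pathways were counted in the same comparisons, in which 18% (KO diestrus against males) and 13.1% (WT diestrus against estrus) of all genes were lower. The list counts are those of limma with all mice. Over all genes, WT diestrus against estrus held 3576 calls by limma, 2 by edgeR and 132 by DESeq2. By limma it held 4, 0 and 1 without WT diestrus replicate 3, 4 and 5. KO diestrus against males held 4635 calls by limma, 813 by edgeR and 1235 by DESeq2. Of 20 other ER folding enzymes and chaperones, 14 were lower and 0 higher in KO diestrus against males, with a median log2 fold change of -0.49 beside -0.44 for the 10 genes and 0.00 for all genes. Among them were the proline isomerase Ppib (-0.61, SE 0.09, FDR 1.9e-06) and the protein disulfide isomerase P4hb (-0.63, SE 0.10, FDR 5.11e-06). In WT diestrus against estrus 8 of the 20 were lower and 0 higher. Of 13 genes of ER-associated degradation, which sends misfolded proteins to the proteasome, 8 were lower and 1 higher in KO diestrus against males and 7 lower and 1 higher in WT diestrus against estrus. The lectin Os9 fell in the first (-0.67, SE 0.10, FDR 1.24e-06) and Edem1, which directs glycoproteins to degradation, in KO diestrus against proestrus (-0.79, SE 0.13, FDR 1.33e-05). Of 7 genes of ER stress sensors and of proteases that act on some of them, 3 and 5 were lower in these 2 comparisons and 0 higher. Eif2ak3 (-0.98, SE 0.16, FDR 1.15e-05) and the protease Mbtps2 (-0.59, SE 0.12, FDR 0.000366) were lower in KO diestrus against proestrus and estrus respectively. Of 16 genes of translocation and signal peptide cleavage, 5 and 4 were lower and 2 and 1 higher in them, the latter close to the 10.7% and 9.05% of all genes that were higher, and Ssr2 (-0.47, SE 0.09, FDR 0.000132) and Sec11c (-0.39, SE 0.08, FDR 0.000295) were lower in KO diestrus against proestrus.

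Among chaperones outside the ER most calls were in the other direction. Of 14 cytosolic heat shock chaperones tested, 0 were lower and 4 higher in KO diestrus against males (10.7% of all genes were higher) and 0 lower and 5 higher in WT diestrus against estrus (9.05% of all genes were higher). The constitutive Hsp70 Hspa8 was higher in KO diestrus against proestrus (0.61, SE 0.11, FDR 4.61e-05) and the Hsp90 co-chaperone Chordc1 in KO diestrus against males (0.35, SE 0.07, FDR 0.000352). Of 7 mitochondrial chaperones 0 were lower and 2 higher in KO diestrus against males, and 1 was lower and 2 higher in WT diestrus against estrus. Trap1, the mitochondrial Hsp90, and Hspd1, the chaperonin, were higher in KO diestrus against proestrus (0.44, SE 0.10, FDR 0.000416 and 0.35, SE 0.09, FDR 0.00183). These comparisons share the diestrus mice described above.

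**Figure D4:**
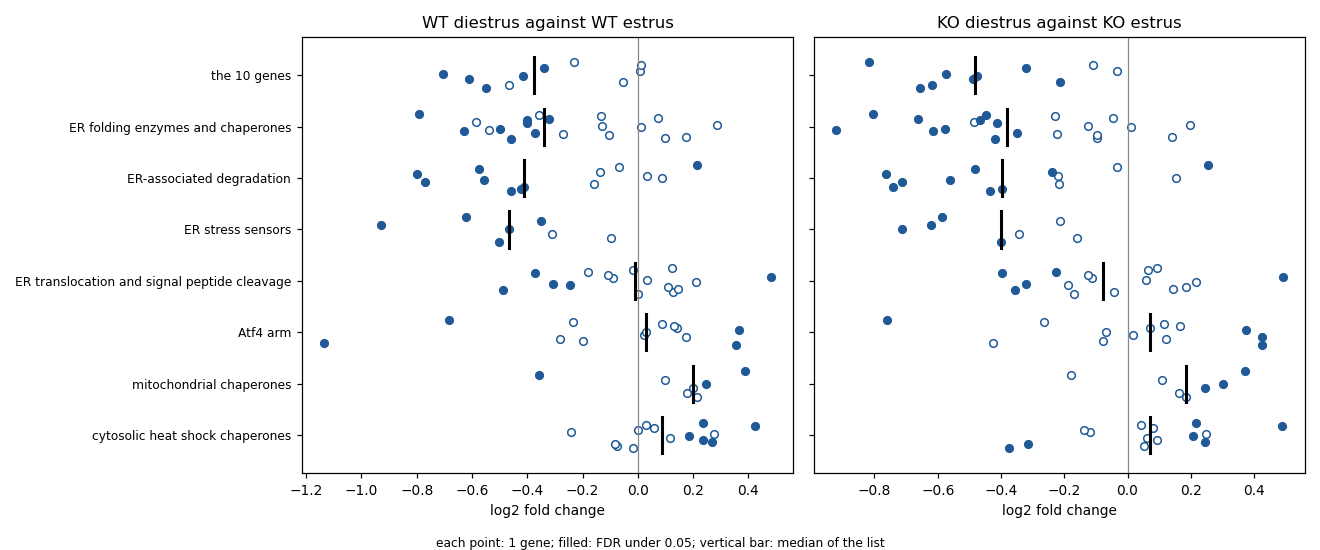
Log2 fold change of diestrus against estrus in WT (left) and KO (right) for the 10 genes and 7 lists of related genes, 1 point per gene, with filled points for an FDR under 0.05 and a vertical bar at the median of each list. The medians of the 10 genes, the ER folding, degradation and sensor lists lie from -0.34 to -0.47 in WT, and those of the cytosolic and mitochondrial chaperones at 0.09 and 0.20.

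Genes of the arm of the response that runs through Atf4 were called between the genotypes. Of its 13 genes tested, 5 were lower and 0 higher in all KO against all WT mice (1.9% of all genes were lower), including Atf4 itself (-0.46, SE 0.04, FDR 9.92e-12). All KO mice had Cnih3 parents, whereas WT mice had Cnih3 or B6 parents, so genotype is partly confounded with breeding here. These list counts are from limma without breeding as a covariate. Over all genes this comparison held 549 calls by limma, 153 by edgeR and 187 by DESeq2. In KO diestrus against males 1 of the 13 was lower, the lipoprotein receptor Vldlr (-0.81, SE 0.12, FDR 9.58e-07), and 0 were higher, with a median of 0.01. In WT diestrus against estrus 2 were lower and 2 higher.

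The genes outside the 10 whose level went closest with their mean, with group means removed and over the 55 libraries, were Suco (r = 0.84), Mia3 (0.83), Tmem33 (0.82), P4ha1 (0.82), Gaa (0.82), Sel1l (0.82) and Derl1 (0.82). In WT diestrus against estrus each of these 7 was lower (13.1% of all genes were), from -0.34 (Tmem33, FDR 0.00768) to -0.80 (Sel1l, FDR 0.000576). In KO diestrus against males 6 of them were lower (18% of all genes were) and Tmem33 had an FDR of 0.051. The genes were picked from these same libraries, where the split among diestrus mice remains after group means are removed. Their lower levels in diestrus thus follow in part from that choice. Sel1l and Derl1 are also in the list of ER-associated degradation.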

How the data were processed

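The authors lysed dorsal hippocampi in NP-40 buffer, made cDNA from polyadenylated RNA of the supernatant, aligned reads to GRCm38 with STAR 2.7.9a and counted them per gene with featureCounts 2.0.3. The deposited gene counts, which are raw, gave every value. The deposited log2 CPM of 16164 genes served as a check and differed from the values computed here by less than 1e-13. A second deposited table of gene CPM and those of transcripts went unused, as did 1 column of the counts that no sample label matches. Of 55774 lines, 287 that repeat a gene were dropped.

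Genes over 1 CPM in at least 10 libraries, without 5 ribosomal genes, were normalized by TMM (edgeR 4.0.16) and fitted in R 4.3.3 with voomWithQualityWeights in limma 3.58.1, as 10 group means and 28 contrasts. Genotype by stage was a moderated F test. FDR followed Benjamini and Hochberg within a comparison, at 0.05. p-values measure the spread between mice, each a separate library, and no 2 libraries correlated above 0.9905. Replicate numbers follow accession order and only name mice. The total counts per library, which set the counting error, are given above.

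Alternatives were edgeR's quasi-likelihood test, DESeq2 1.42.0, other size factors, weights, filter and covariates, subsets by age, and each mouse left out. The steps were tested on simulated counts. The 10 genes, all lists and the age subsets were chosen with earlier results of these data known. Named were all 10 genes, the 2 genes of each pathway list with the smallest FDR and the 8 genes most like the mean of the 10, of which 1 is not reported here. Positions are from GENCODE M21, and promoters from RefSeq.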

Additional observations from a re-analysis of the deposited data

Results flagged for a closer look

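Of 100 gene and group combinations, 6 held 1 mouse whose log2 CPM lay far from the rest of its group, measured as the gap to its nearest neighbour over the whole range (Dixon's ratio), above its critical value for the group's size. Chance gives about 1 in 20. Sdf2l1 was low in KO estrus replicate 4 (5.27 CPM, ratio 0.792, 6 mice), in KO male replicate 6 (5.82 CPM, ratio 0.787, 7 mice) and in WT diestrus replicate 3 (5.87 CPM, ratio 0.667, 6 mice). Hsp90b1 and Calr were low in the same mouse, WT estrus replicate 2, at 115 CPM (ratio 0.684) and 136 CPM (ratio 0.582) in a group of 7 mice. Pdia4 was high in WT metestrus replicate 3, at 34.0 CPM (ratio 0.837, 4 mice). None of these mice was left out of the tests.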

How the results depend on the processing

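No paired analysis was possible because the labels give no replicate number and do not say what shared first parts of mouse labels mean. The 7 genes called between WT stages became 0 by edgeR, 1 by DESeq2, 1 with the RNA integrity number as a covariate, 1 without the 7 diestrus mice under 14 weeks, 3 with no filter on low counts, and 2 each by voom without quality weights and with parental breeding, pituitary markers, mature oligodendrocyte markers or nuclear-retained RNA as a covariate, and were 2 to 8 with each mouse left out. The 10 between KO stages became 3 by edgeR, DESeq2 and voom without quality weights, 5 with no filter, 2 with mature oligodendrocyte markers, 1 with nuclear-retained RNA and 1 without the 7 mice, and were 8 to 10 with each mouse left out. The 8 between KO females and males became 1 by edgeR, 1 by DESeq2, 2 without weights, 4 with no filter, 1 with age as a covariate and 0 each with mature oligodendrocyte markers, nuclear-retained RNA or without the 7 mice, and were 5 to 9 with each mouse left out. The 0 between WT females and males became 6 with only the 7 mice as diestrus and 1 with nuclear-retained RNA (0 to 6 with each mouse left out), the 0 between genotypes became 2 (0 to 3) and the 0 for genotype by stage became 1 (0 to 1) with the RNA integrity number. DESeq2 size factors and choroid plexus markers as a covariate kept all 6 counts within 1.5 times. The share of all genes called moved too, as given above for edgeR, DESeq2 and single mice left out. The nuclear-retained RNA was chosen after the data were seen. Fewer mice remain in the age subsets, and the cause of the other changes was not tested.

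Of 630 refits of the 45 calls, 283 kept direction and threshold, 329 lost the threshold and 18 changed sign, and of 2475 with a mouse left out 2343, 131 and 1 did. Without the 7 mice the log2 fold changes that changed sign were, in WT diestrus against estrus, Pdia4 0.119 and Hyou1 0.041, in KO metestrus against diestrus Hsp90b1 -0.012, Calr -0.087 and Hyou1 -0.020, in KO diestrus against proestrus Hyou1 0.095, against estrus Hsp90b1 0.062, Pdia4 0.064, Calr 0.012 and Hyou1 0.060, and against males Hsp90b1 0.018, Pdia4 0.031, Calr 0.009 and Hyou1 0.19, all with an FDR of at least 0.83. With nuclear-retained RNA, Hyou1 in KO diestrus was 0.103 against proestrus, 0.055 against estrus and 0.102 against males. With the RNA integrity number, Xbp1 in WT diestrus against proestrus was 0.058. With each mouse left out, Pdia4 in WT diestrus against estrus was -0.521 to 0.002, the last without WT diestrus replicate 4. With 4 to 7 mice a group, the tests cannot separate small differences from the spread between mice.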
